A study of Mus musculus with 10 samples.

Results

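The genes described here encode 10 surface receptors with which macrophages bind microbes, antibody-coated particles and modified lipoproteins: the C-type lectins *Clec4d*, *Clec4e*, *Clec4n* and *Clec7a*, the Fcγ receptors *Fcgr1*, *Fcgr2b*, *Fcgr3* and *Fcgr4*, and the scavenger receptors *Msr1* and *Marco*. They were picked by name with earlier results of these data known, so their calls beside those of all genes are a description. Each matched 1 Ensembl identifier among the 43432 genes counted. Of the 10, 9 passed the filter on low counts and were tested among 14172 genes; *Marco* did not pass. RNA was sequenced from the mouse macrophage line RAW264.7 under 5 conditions with 2 libraries each. The conditions were solvent alone (DMSO, 0.5%), DMSO + LPS (0.5% DMSO with lipopolysaccharide at 1 µg/mL), and compound **1** at 3.2, 10 or 32 µM with the same dose of LPS. Compound **1** is the 7(*E*) form of 9-keto-hexadec-7-enoic acid, a fatty acid whose ketone is conjugated to its double bond. Cells were pretreated for 1 h before LPS, and RNA was taken after 12 h. All libraries came from the same line, no group held the compound without LPS, and no source states that the replicates came from separate cultures, so the p-values measure only the spread between these libraries.

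C-type lectin receptors bind sugars and lipids of fungal and mycobacterial walls. *Clec7a* (Dectin-1) carries its own signaling tail, whereas *Clec4e* (Mincle), *Clec4d* (MCL) and *Clec4n* (Dectin-2) use the FcRγ chain encoded by *Fcer1g*, and all of these routes pass through the kinase Syk to the adaptor Card9. The activating Fcγ receptors *Fcgr1*, *Fcgr3* and *Fcgr4* use the same FcRγ chain, while *Fcgr2b* carries an inhibitory tail that recruits phosphatases and dampens them. *Msr1* and *Marco* are trimeric class A scavenger receptors that take up oxidized lipoproteins and bacteria without antibody.

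The genes lie in few places of the mouse genome (GRCm38). *Clec4n* (chr6:123229843-123247021, plus strand), *Clec4d* (chr6:123262111-123275265, plus strand) and *Clec4e* (chr6:123281789-123289870, minus strand) are direct neighbors, and *Clec7a* lies on the same chromosome at chr6:129461591-129472779. *Fcgr2b* (chr1:170958617-170976547), *Fcgr4* (chr1:171018920-171029761) and *Fcgr3* (chr1:171051174-171064935) form a cluster on chromosome 1, and *Fcgr1* stands apart at chr3:96282909-96293969. *Msr1* spans chr8:39581685-39642673 and *Marco* chr1:120474538-120505024. GENCODE M21 lists *Clec7a* as a polymorphic pseudogene and the others as protein-coding. Of the 75-base stretches in the transcripts of *Fcgr3*, 5.42% also occur in *Fcgr2b*, and 2.70% of those of *Fcgr2b* occur in other genes. No stretch of 150 bases was shared by any of the 10 with another gene. The paper states a run of 2 × 150 cycles, so a read of full length cannot fall wholly in the shared part. Only reads trimmed shorter could do so for these 2 genes, to an extent that is not known. *Fcgr2b* also shares 155 exonic bases with *Gm38204* on the opposite strand, and the use of strand in counting is not stated.

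RefSeq promoter windows (GRCm38.p6, 250 bases before to 50 after the annotated start) were at hand for 8 of the 10 genes, and 5 are shown for the reasons given next. *Clec4d* (chr6:123261857-123262156, plus strand) and *Clec4e* (chr6:123289822-123290121, minus strand) are the lectins that did not fall with **1**. *Fcgr1* (chr3:96293920-96294219, minus strand) and *Fcgr2b* (chr1:170976022-170976321, minus strand) had the lowest log2 ratios at 32 µM, and *Fcgr4* (chr1:171018676-171018975, plus strand) is the activating neighbor of *Fcgr2b*. Each sequence runs 5′ to 3′ on the strand of its gene, and capitals mark matches to the motifs named after it.
Clec4d: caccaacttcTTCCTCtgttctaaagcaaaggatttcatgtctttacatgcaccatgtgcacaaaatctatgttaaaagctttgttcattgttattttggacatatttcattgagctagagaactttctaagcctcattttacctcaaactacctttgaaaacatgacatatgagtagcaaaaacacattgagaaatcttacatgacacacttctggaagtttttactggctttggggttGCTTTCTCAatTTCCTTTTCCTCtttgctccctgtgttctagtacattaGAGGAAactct
Clec4e: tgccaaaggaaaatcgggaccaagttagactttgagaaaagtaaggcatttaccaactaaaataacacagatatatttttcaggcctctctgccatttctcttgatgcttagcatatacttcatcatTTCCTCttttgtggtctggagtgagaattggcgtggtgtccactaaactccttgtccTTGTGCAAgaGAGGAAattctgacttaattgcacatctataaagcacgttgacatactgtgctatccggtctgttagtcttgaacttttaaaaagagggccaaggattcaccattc
Fcgr1: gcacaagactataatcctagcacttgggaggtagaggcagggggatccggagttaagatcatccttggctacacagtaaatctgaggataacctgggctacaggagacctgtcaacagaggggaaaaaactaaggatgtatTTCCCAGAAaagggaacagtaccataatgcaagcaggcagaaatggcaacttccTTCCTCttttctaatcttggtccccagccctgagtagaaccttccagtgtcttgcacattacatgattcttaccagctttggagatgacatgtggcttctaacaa
Fcgr2b: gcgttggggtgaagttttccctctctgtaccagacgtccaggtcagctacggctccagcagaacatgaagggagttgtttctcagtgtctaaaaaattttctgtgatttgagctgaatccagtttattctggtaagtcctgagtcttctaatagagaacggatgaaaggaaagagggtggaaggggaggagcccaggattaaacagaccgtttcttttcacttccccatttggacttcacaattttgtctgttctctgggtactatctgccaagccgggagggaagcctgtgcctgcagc
Fcgr4: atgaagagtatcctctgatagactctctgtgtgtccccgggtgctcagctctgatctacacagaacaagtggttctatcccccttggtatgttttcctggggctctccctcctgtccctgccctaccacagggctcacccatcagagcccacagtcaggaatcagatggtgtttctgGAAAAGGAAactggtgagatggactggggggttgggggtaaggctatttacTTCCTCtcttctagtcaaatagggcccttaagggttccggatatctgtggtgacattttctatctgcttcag

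The motifs were searched on both strands as plain letters: an ISRE-like GAAANNGAA, a GAS-like TTCNNNGAA, a κB-like GGANTTTCC, an AP-1-like TGANTCA, an ARE-like TGANNNNGC, a PU box GAGGAA, a C/EBP-like TTGCNNAA and an E box CACGTG. The PU box, a core bound by the myeloid factor PU.1, occurred in 7 of the 8 windows, all but that of *Fcgr2b*, and in 28.3% of 27025 mouse promoter windows. *Fcgr1*, a textbook gene of the interferon-γ response, held the GAS-like letters, which occur in 8.47% of all windows. *Fcgr4* and *Clec4d* held ISRE-like letters (8.57% of all windows), and in *Clec4d* that match overlaps a PU box. The C/EBP-like letters (10.8% of all windows) stood in *Clec4e* and in *Fcgr3*, and the ARE-like letters (41.4%) in *Clec4d* and *Clec7a*. The window of *Fcgr2b* held none of the 8 motifs, and none of the windows held the κB-like, AP-1-like or E box letters (1.23%, 7.93% and 7.24% of all windows). The RefSeq starts used for *Fcgr3* and *Fcgr2b* lie 5532 and 476 bases inside the GENCODE genes. These matches describe the letters alone.

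Library totals ranged from 45966803 to 58976377 counts, which leaves a counting error of 5.82% to 6.60% at 5 CPM (counts per 1000000 counts, scaled by TMM). All 12 macrophage markers examined were expressed, with a summed level of 11560 to 12602 CPM with DMSO alone, 10923 to 11093 with LPS alone and 8523 to 9075 with 32 µM **1**, and T cell and NK cell markers summed to at most 0.0699 CPM, B cell markers to 0.465 CPM and mast cell markers to 0.301 CPM. Neutrophil markers summed to 0.599 to 7.25 CPM and dendritic cell markers to 2.16 to 8.43 CPM, both lowest in DMSO. Some libraries stood apart. In replicate 1 at 10 µM the 4 epithelial markers summed to 38.2 CPM and the 5 fibroblast markers to 7.87 CPM, and in replicate 1 at 3.2 µM the sums were 5.78 and 1.32 CPM, against at most 0.085 and 0.286 CPM in every other library. In replicate 2 at 32 µM the transcript *Gm42418*, a feature known to collect ribosomal RNA reads, took 2.46% of all counts against 0.0419% to 0.207% elsewhere. Replicate 2 of DMSO, 10 µM and 32 µM had 0.160%, 0.130% and 0.247% of counts from mitochondrial ribosomal RNA, against 0.0777% to 0.109% elsewhere. In the same order the 1539 genes with transcripts under 1000 bases had a median log2 deviation of -0.22, -0.093 and -0.14, against -0.039 to 0.17 elsewhere. Counts of calls without single libraries are given beside the main results.

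The first question was what LPS alone did to the receptors. LPS changed all 9 tested genes, raising 8 and lowering *Fcgr3*, where "called" here and below means a change of at least 1.5-fold with an adjusted p under 0.05 (edgeR quasi-likelihood F test, Benjamini-Hochberg over all tested genes). Over all genes 28.2% were called in this comparison. The median log2 ratio of the 9 was 0.74 against 0.0026 over all genes. Each of the 9 had at least 175 counts in every library, and the 2 LPS libraries did not overlap the 2 DMSO libraries for any of them, as for 76.9% of all tested genes. With 2 libraries against 2, an exact permutation test of a single gene could not go below p = 0.333, so the tests draw on the spread across all genes.

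Among the lectins, *Clec4e* moved most. It had 105 and 111 CPM in DMSO and 619 and 608 CPM in DMSO + LPS. The LPS level was 5.70-fold higher (log2 ratio 2.51 ± 0.062, SE; edgeR adjusted p = 2.75e-08). *Clec4d*, which pairs with Mincle on the cell surface, had 186 and 163 CPM in DMSO and 444 and 459 CPM in DMSO + LPS, a 2.59-fold rise. The rise of Dectin-2 was smaller: *Clec4n* had 45.0 and 42.9 CPM in DMSO and 71.1 and 74.0 CPM in DMSO + LPS (1.65-fold, adjusted p = 8.52e-05). *Clec7a* was the lowest of the expressed members, with 4.05 and 3.45 CPM before and 5.99 and 6.54 CPM after LPS (1.67-fold, adjusted p = 0.00159). All 4 lectins thus rose, and the neighbors *Clec4e* and *Clec4n* did so by 5.70-fold and 1.65-fold.

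**Figure D1:**
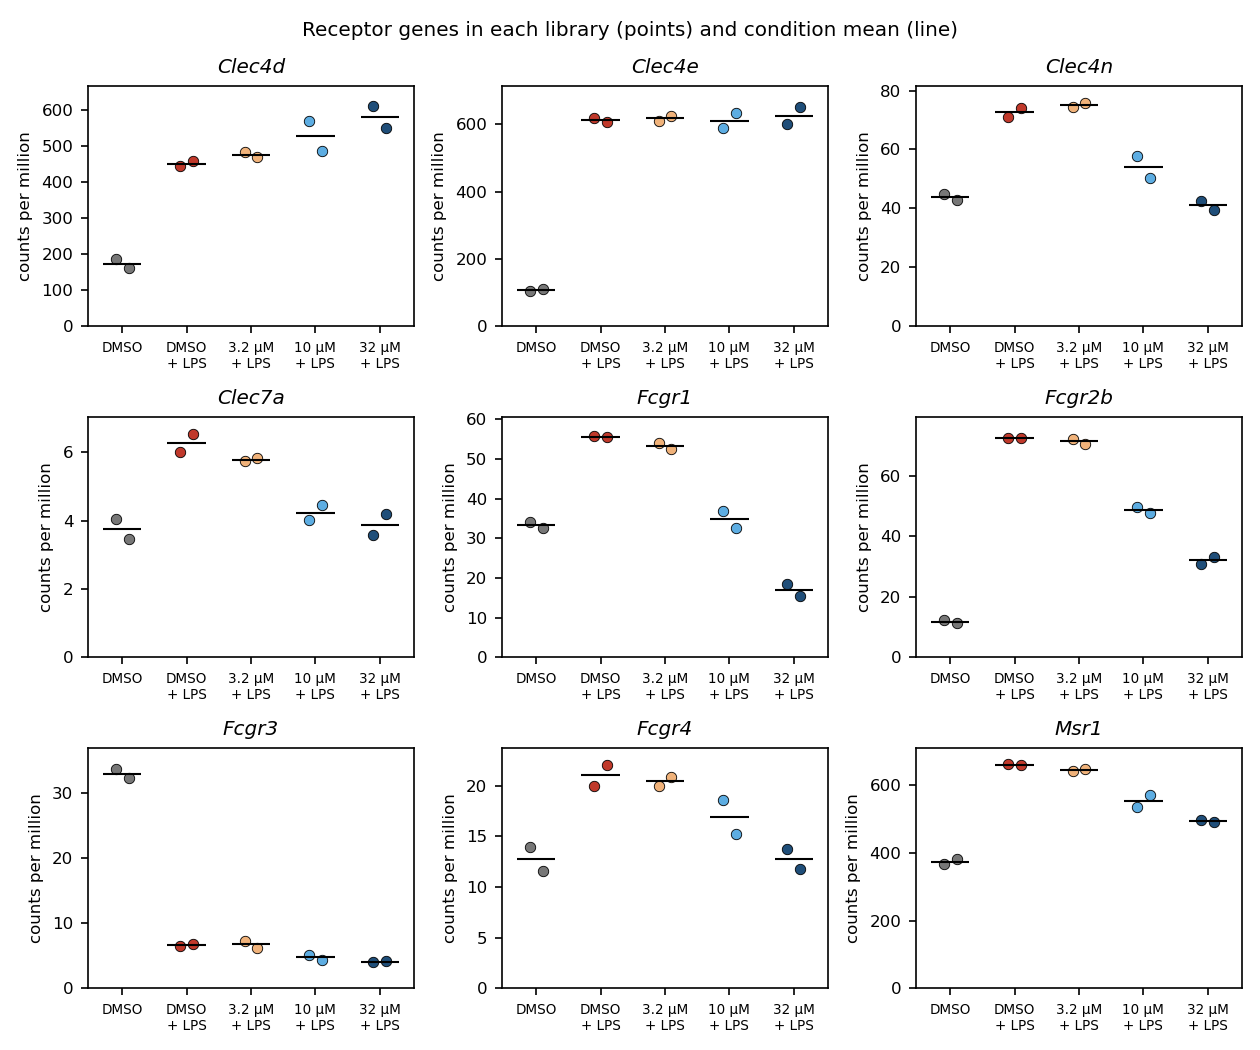
CPM (y axes, linear from 0) of the 9 tested receptor genes in each of the 2 libraries (points) of the 5 conditions (x axes), with the mean as a line. *Clec4e* stays between 590 and 653 CPM in all 8 LPS libraries, while *Fcgr1* goes from 55.4 or more in DMSO + LPS to 18.6 or less at 32 µM.

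The Fcγ receptors split. The inhibitory *Fcgr2b* had 12.4 and 11.2 CPM in DMSO and 72.6 CPM in each DMSO + LPS library, a 6.14-fold rise (log2 ratio 2.62 ± 0.067, SE; edgeR adjusted p = 3.12e-08). The low-affinity activating *Fcgr3* went the other way, with 33.6 and 32.2 CPM in DMSO and 6.48 and 6.75 CPM in DMSO + LPS (4.98-fold lower, log2 ratio -2.32 ± 0.10, SE; adjusted p = 5.94e-07). The high-affinity receptor *Fcgr1* had 34.2 and 32.7 CPM in DMSO and 55.7 and 55.4 CPM in DMSO + LPS, a 1.66-fold rise. *Fcgr4*, an activating receptor of intermediate affinity, had 14.0 and 11.6 CPM in DMSO and 20.01 and 22.1 CPM in DMSO + LPS (1.65-fold). Its call was lost without DMSO replicate 2, where the log2 ratio was 0.57 and below the fold cutoff; the part of that library's mitochondrial ribosomal RNA and short transcripts was not tested. Per length, the level of *Fcgr2b* relative to *Fcgr3* was 0.111 and 0.104 in the DMSO libraries and 3.36 and 3.23 in the DMSO + LPS libraries. The inhibitory gene was thus below the activating one in both resting libraries and above it in both LPS libraries.

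The scavenger receptor *Msr1* rose from 365 and 382 CPM to 660 and 658 CPM (1.76-fold, adjusted p = 2.51e-06). *Marco* gave at most 2 counts in any library: 0 and 0 with DMSO alone, 1 and 0 with LPS alone, and 1 and 1 (3.2 µM), 2 and 0 (10 µM) and 1 and 1 (32 µM) with **1**. A count of 0 allows up to 3 counts, or 0.0510 to 0.0664 CPM in these libraries, so its expression was not detectable at this depth and it is left out of every ratio. In bulk RNA a lower level per cell and fewer expressing cells cannot be told apart, here or in the comparisons that follow.

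The LPS calls of *Clec4n*, *Clec7a*, *Fcgr1* and *Fcgr4* lay close to the fold cutoff. When counts were scaled by library size alone, the median log2 ratio over all genes moved to -0.20 and these 4 had log2 ratios of 0.51 to 0.53, below the cutoff. Relative to that shifted median they lay at 0.72, 0.73, 0.73 and 0.72.

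The next question was how far **1** changed the receptors in LPS-treated cells. At 32 µM, 6 of the 9 genes fell and none rose: *Fcgr1*, *Fcgr2b*, *Clec4n*, *Fcgr4*, *Fcgr3* and *Clec7a*. Over all genes 4.18% were called, 180 higher and 412 lower. The median log2 ratio of the 9 was -0.69 against 0.0082 over all genes. All 4 Fcγ receptors were among the 6, whereas *Clec4d*, *Clec4e* and *Msr1* were not called. The summed macrophage markers also differed between these groups, at 8523 to 9075 CPM against 10923 to 11093 CPM. Of the 12 markers 6 lay lower without overlap, 1 higher (*Csf1r*) and 5 overlapped. Libraries of these groups did not overlap for 50% of all tested genes, so these counts alone say little. *Itgam* and *Lyz2* were called lower, and *Lyz2* had 2828 and 2585 CPM at 32 µM against 4093 and 4160 CPM. Neutrophil markers summed to 1.59 to 2.49 CPM against 6.32 to 6.55 CPM, nearly all from *S100a8*. The part of these markers in the result was not tested.

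*Fcgr1* had the lowest log2 ratio of the 9. Its level was 55.7 and 55.4 CPM in DMSO + LPS. With **1** it was 54.1 and 52.5 CPM at 3.2 µM, then 36.9 and 32.6 CPM (10 µM), then 18.6 and 15.5 CPM (32 µM). At 32 µM it was 3.25-fold lower than in DMSO + LPS (log2 ratio -1.70 ± 0.094, SE; edgeR adjusted p = 2.04e-05). *Fcgr2b* had 72.6 CPM in each DMSO + LPS library, and its pairs of libraries at 3.2, 10 and 32 µM had 72.3 and 70.7, 49.6 and 47.8, and 31.0 and 33.2 CPM, where it was 2.26-fold lower (log2 ratio -1.18 ± 0.063, SE; adjusted p = 1.68e-05). For both genes the libraries at 10 µM lay between those at 3.2 and 32 µM without overlap. The share of all genes with such an order was not computed.

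*Fcgr4* had 20.01 and 22.1 CPM in DMSO + LPS, and its pairs of libraries at 3.2, 10 and 32 µM had 19.9 and 20.9, 18.6 and 15.3, and 13.8 and 11.7 CPM (1.65-fold lower at 32 µM, adjusted p = 0.0114). *Fcgr3*, already low after LPS, had 6.48 and 6.75 CPM in DMSO + LPS, and its pairs of libraries at 3.2, 10 and 32 µM had 7.29 and 6.21, 5.12 and 4.40, and 4.03 and 4.16 CPM (1.62-fold lower, adjusted p = 0.00459). *Fcgr3* was thus the only tested member that fell both with LPS and with 32 µM **1**. For both genes the 2 libraries at 32 µM lay below the 2 with LPS alone. Libraries of these groups did not overlap for 8 of the 9 members and for 50% of all tested genes, and between 3.2 µM and DMSO + LPS for 6 of the 9 and 45.9%, so this alone says little.

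Among the lectins, *Clec4n* and *Clec7a* fell and their relatives did not. *Clec4n* had 71.1 and 74.0 CPM in DMSO + LPS, and its pairs of libraries at 3.2, 10 and 32 µM had 74.5 and 75.8, 57.9 and 50.2, and 42.6 and 39.6 CPM (1.76-fold lower at 32 µM, log2 ratio -0.82 ± 0.075, SE; edgeR adjusted p = 3.00e-04). *Clec7a* had 5.99 and 6.54 CPM in DMSO + LPS, and its pairs of libraries at 3.2, 10 and 32 µM had 5.74 and 5.83, 4.02 and 4.45, and 3.58 and 4.18 CPM (1.61-fold lower, adjusted p = 0.0119). *Clec4e* had 619 and 608 CPM in DMSO + LPS and 600 and 653 CPM at 32 µM, which overlap. Its log2 ratio was 0.029 with a 95% interval of -0.11 to 0.17, so a change of 1.5-fold lies outside the interval. *Clec4d* had 444 and 459 CPM in DMSO + LPS, and its pairs of libraries at 3.2, 10 and 32 µM had 484 and 470, 569 and 486, and 614 and 550 CPM. At 32 µM its log2 ratio was 0.36, with a 95% interval of 0.15 to 0.58 and an adjusted p of 0.0512, and it was not called.

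The neighbors on chromosome 6 separated at 10 and 32 µM, and not at 3.2 µM. Per length, *Clec4n* relative to *Clec4d* stood at 0.272 and 0.297 in the DMSO libraries and at 0.180 and 0.181 in those with LPS alone. With **1** it was 0.173 and 0.182 (3.2 µM), 0.115 and 0.116 (10 µM) and 0.0783 and 0.0811 (32 µM). This ratio was lowest in the 2 libraries at 32 µM. *Clec4e* relative to *Clec4d* was 0.449 and 0.427 in DMSO + LPS and 0.315 and 0.382 at 32 µM.

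*Msr1* had 660 and 658 CPM in DMSO + LPS, and its pairs of libraries at 3.2, 10 and 32 µM had 640 and 647, 534 and 571, and 497 and 490 CPM. Its log2 ratio at 32 µM was -0.42 ± 0.046 (SE, edgeR adjusted p = 8.83e-04), which is 1.34-fold and below the cutoff of 1.5-fold. The difference was small, and its 95% interval did not include 0.

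**Figure D2:**
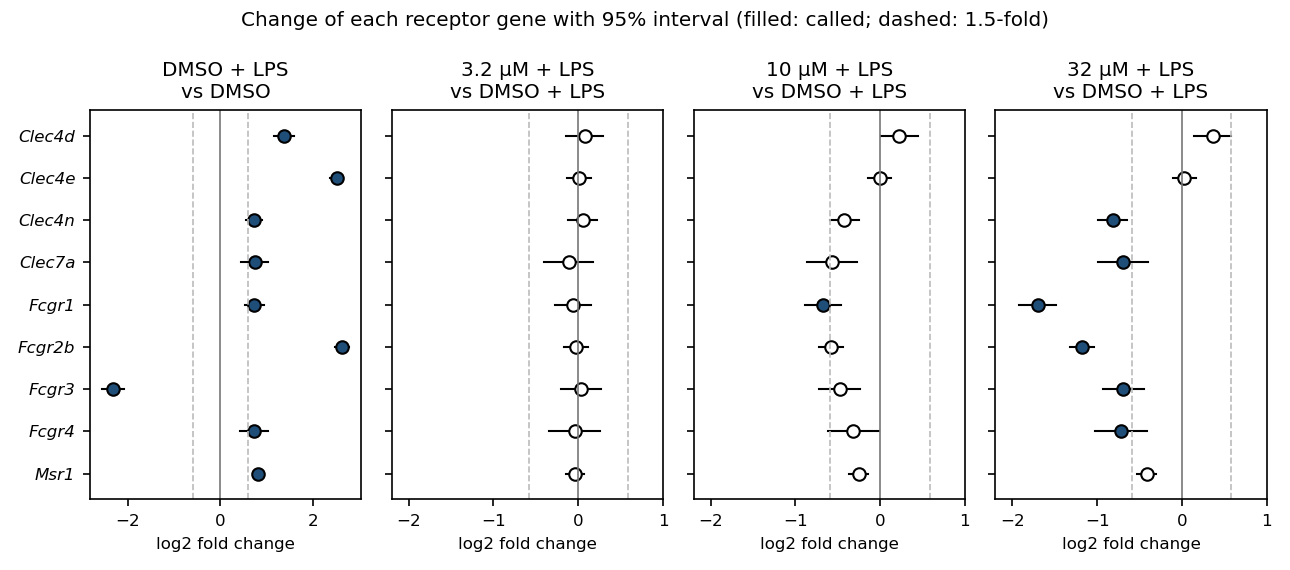
Log2 fold change (x axes) of the 9 tested receptor genes (y axis) for LPS against DMSO and for each dose of **1** with LPS against DMSO + LPS, with 95% intervals from edgeR. Filled points were called and dashed lines mark 1.5-fold. At 3.2 µM every interval includes 0, and at 32 µM the points run from -1.70 for *Fcgr1* to 0.36 for *Clec4d*.

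Of the 6 calls at 32 µM, those of *Fcgr1*, *Fcgr2b*, *Clec4n* and *Fcgr3* held when each of the 10 libraries was left out in turn. *Clec7a* lost its call without DMSO + LPS replicate 1 (adjusted p = 0.0509), without DMSO + LPS replicate 2 (0.0946) and without replicate 1 at 32 µM (0.0758). *Fcgr4* lost its call without DMSO + LPS replicate 2 (adjusted p = 0.0931) and without replicate 2 at 32 µM (0.0819), the library rich in *Gm42418* and in mitochondrial ribosomal RNA, whose part was not tested. Without that library the other 5 remained called.

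At 10 µM only *Fcgr1* was called, 1.60-fold lower than in DMSO + LPS (log2 ratio -0.68 ± 0.091, SE; edgeR adjusted p = 0.00875), against 0.861% of all genes. The median log2 ratio of the 9 was -0.42 against 0.016 over all genes. *Fcgr2b* was 1.49-fold lower (adjusted p = 0.00353), just short of the cutoff, and *Clec4n* (log2 ratio -0.42, adjusted p = 0.0268) and *Msr1* (log2 ratio -0.25, adjusted p = 0.0313) also had adjusted p under 0.05 with smaller ratios. *Clec7a* (log2 ratio -0.56, adjusted p = 0.0722), *Fcgr3* (-0.47, 0.0675), *Fcgr4* (-0.31, 0.396) and *Clec4d* (0.22, 0.401) did not pass. The call of *Fcgr1* was lost without DMSO + LPS replicate 1 (adjusted p = 0.0894) or replicate 2 (0.0795). Without replicate 1 at 10 µM, the library with epithelial and fibroblast transcripts, *Fcgr1* (log2 ratio -0.77) and *Fcgr2b* (-0.60) were both called.

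At 3.2 µM none of the 9 was called by edgeR, and none had an unadjusted p under 0.05. Among all 14172 genes 0% were called, and 600 had an unadjusted p under 0.05. DESeq2's Wald test and edgeR's likelihood ratio test also called none of the 9, nor did the main test without replicate 1 at 3.2 µM. The log2 ratios lay between -0.11 (*Clec7a*) and 0.078 (*Clec4d*), and the widest 95% intervals were those of *Fcgr4*, from -0.34 to 0.26, and *Clec7a*, from -0.41 to 0.18. The intervals of all 9 thus lay within 1.5-fold.

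Neighboring doses were compared directly. From 10 to 32 µM *Fcgr1* was 2.04-fold lower (log2 ratio -1.03 ± 0.094, SE; edgeR adjusted p = 9.75e-04) and *Fcgr2b* 1.52-fold lower (adjusted p = 0.00188), and these 2 were the members called against 1.32% of all genes. The call of *Fcgr2b* needed replicate 1 at 10 µM and replicate 1 at 32 µM: without the first its log2 ratio was -0.58, below the cutoff. *Fcgr1* was called without the first (log2 ratio -0.93) and without replicate 2 at 32 µM (-0.90). From 3.2 to 10 µM *Fcgr1* was called (1.53-fold lower, adjusted p = 0.0286), against 0.254% of all genes, and that call was lost on leaving out any library of DMSO, DMSO + LPS, 3.2 µM or 10 µM. For *Clec7a* and *Fcgr3* the difference between 10 and 32 µM had 95% intervals of -0.43 to 0.17 and -0.47 to 0.031.

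A further comparison set cells given LPS and 32 µM **1** against resting cells in DMSO. Of the 9 genes, 5 were called, against 27.1% of all genes. *Clec4e* (5.81-fold), *Clec4d* (3.34-fold) and *Fcgr2b* (2.71-fold) remained higher than in DMSO. *Fcgr1* was 1.96-fold lower than in resting cells (17.1 ± 2.2 CPM against 33.4 ± 1.1 CPM, SD, n = 2 each) and *Fcgr3* 8.05-fold lower. *Fcgr4* (12.8 CPM in each mean, 95% interval of the log2 ratio -0.31 to 0.31), *Clec7a* (-0.25 to 0.35) and *Clec4n* (-0.27 to 0.078) were not called, and the sign of the first 2 changed with the scaling. *Msr1* lay 1.32-fold above DMSO (adjusted p = 1.76e-04), below the cutoff. These ratios share their libraries at 32 µM with the comparison against DMSO + LPS.

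RPKM was taken per length of a gene's merged exons. For *Fcgr2b* that length is 5790 bases against 3544 in its longest transcript, so the sums and shares below depend on the length used. The 4 Fcγ receptor genes summed to 45.9 and 42.3 in the DMSO libraries and to 53.7 and 55.4 in those with LPS alone. With **1** the sums were 53.4 and 52.7 (3.2 µM), 40.5 and 35.5 (10 µM) and 25.8 and 23.5 (32 µM). The sum at 32 µM was below that of resting cells in both libraries. The share of *Fcgr3* was 42.3% and 43.9% in DMSO and 6.95% and 7.02% in DMSO + LPS, and that of *Fcgr2b* 4.69% and 4.57% in DMSO and 23.4% and 22.6% in DMSO + LPS. At 32 µM *Fcgr2b* still made up 20.7% and 24.4%, *Fcgr4* had the highest share with 42.5% and 39.8%, and *Fcgr1* had 27.8% and 25.5% against 40.0% and 38.6% in DMSO + LPS. The share of the inhibitory gene therefore overlapped between DMSO + LPS and 32 µM while the sum fell.

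**Figure D3:**
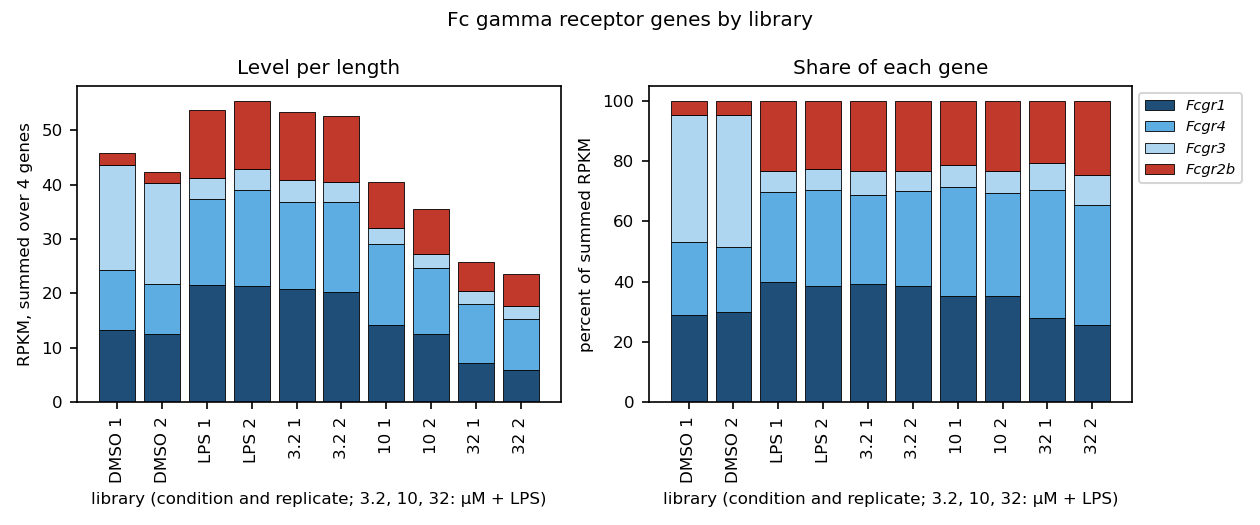
The 4 Fcγ receptor genes in each library as RPKM stacked over the genes (left, from 0) and as percent of that sum (right). The sum is 53.7 and 55.4 RPKM in DMSO + LPS and 25.8 and 23.5 RPKM at 32 µM, and *Fcgr3* gives way to *Fcgr2b* between DMSO and DMSO + LPS.

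Per length, the order of the members changed with LPS: between DMSO and DMSO + LPS *Fcgr3* went from rank 5 to rank 8, *Clec4e* from 4 to 2 and *Fcgr2b* from 8 to 7. The length was that of a gene's merged exons, 6344 bases for *Msr1* and 5790 for *Fcgr2b*. Their longest transcripts have 3636 and 3544 bases. Ranks by transcript length were not computed, so the places of these 2 genes and of those next to them hold for the merged length only. *Clec4d* was highest in every condition (RPKM 109 ± 10 with DMSO alone, 283 ± 6.6 with LPS alone and 364 ± 28 with 32 µM **1**, SD, n = 2). In DMSO it was followed by *Msr1*, *Clec4n*, *Clec4e* and *Fcgr3*, and in the 4 LPS conditions by *Clec4e*, *Msr1* and *Clec4n*. *Fcgr1* stood above *Fcgr4* in DMSO + LPS (21.4 ± 0.074 against 16.8 ± 1.2 RPKM), did not differ from it beyond the spread at 10 µM (13.4 ± 1.2 against 13.5 ± 1.9 RPKM), and stood below it at 32 µM (6.59 ± 0.83 against 10.2 ± 1.1 RPKM).

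Of the signaling partners named above, *Fcer1g*, *Syk* and *Card9*, none was called at 32 µM. *Fcer1g*, the shared FcRγ chain, had 218 and 170 CPM with DMSO alone, 323 and 367 CPM with LPS alone, and 319 and 251 CPM with 32 µM **1**. It rose with LPS (log2 ratio 0.83, edgeR adjusted p = 0.00478), and its log2 ratio at 32 µM was -0.27 with an adjusted p of 0.442. *Syk* rose with LPS from 195 and 203 CPM to 427 and 405 CPM (log2 ratio 1.07) and had 356 and 377 CPM at 32 µM (log2 ratio -0.18, adjusted p = 0.0797). *Card9* had 84.5 and 85.1 CPM with DMSO alone, 55.7 and 60.4 CPM with LPS alone, and 64.0 and 63.9 CPM with 32 µM **1**, and was called in neither comparison (log2 ratios -0.55 and 0.14). Whether the receptors and these partners differ in their response was not tested.

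Lists of related genes placed these values among their families, in the order of other C-type lectin receptors, other Fc receptors and their partners, other scavenger receptors, and receptor-proximal kinases, adaptors and phosphatases. With LPS, where 28.2% of all genes were called, the calls were 10 of 19 tested lectins (6 higher, 4 lower), 5 of 8 Fc receptor genes (4 higher, 1 lower), 5 of 13 scavenger receptors (all lower) and 13 of 40 proximal genes (10 higher, 3 lower). At 32 µM, where 4.18% of all genes were called, they were 4 of 19 (1 higher, 3 lower), 1 of 8 (lower), 0 of 13 and 1 of 40 (lower), and without replicate 2 at 32 µM they were 3, 2, 0 and 1. Among the 13 scavenger receptors 4 had an unadjusted p under 0.05 at 32 µM, against 22.2% of all genes, and neither DESeq2 nor the likelihood ratio test called any. Without replicate 1 at 32 µM edgeR called *Cd36* (log2 ratio 0.62, adjusted p = 0.00438). At 10 and 3.2 µM edgeR's quasi-likelihood test called no gene of any list, although in the order of the lists 7, 4, 1 and 11 genes at 10 µM (12.1% of all genes) and 3, 0, 1 and 1 genes at 3.2 µM (4.23% of all genes) had an unadjusted p under 0.05. At 10 µM DESeq2 called *Cd69* and *Pigr*, the antibody transporter of epithelia, and the likelihood ratio test called *Cd69* and *Clec2d*. At 3.2 µM DESeq2 called *Pigr*, and the likelihood ratio test called 0 in each list. *Pigr* had 870 counts in replicate 1 at 10 µM and 71 in replicate 1 at 3.2 µM, the libraries with epithelial transcripts, and at most 4 elsewhere. In the lectin list *Clec2h* had 55 and 10 counts in the same libraries and 0 elsewhere, so both genes were tested through these libraries alone. Leaving out 1 library gave no edgeR call in the lists at 3.2 µM, and at 10 µM it gave *Clec2d* without DMSO replicate 2 (log2 ratio -0.72, adjusted p = 0.0461) and *Pigr* without replicate 2 at 10 µM.

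The lectins that fell at 32 µM were *Cd69*, an early activation antigen, *Clec2d*, a ligand of an NK cell receptor, and *Mrc1*, the mannose receptor. *Cd69* had 0.017 and 0.088 CPM with DMSO alone, 5.24 and 5.86 CPM with LPS alone, and 1.88 and 1.48 CPM with 32 µM **1** (log2 ratio -1.72 at 32 µM, edgeR adjusted p = 0.00330). *Clec2d* had 3.60 and 3.64 CPM in DMSO + LPS and 1.14 and 1.24 CPM at 32 µM (log2 ratio -1.60). *Mrc1* had 2.58 and 2.56 CPM in DMSO + LPS and 1.25 and 1.46 CPM at 32 µM (log2 ratio -0.93). *Clec10a*, a galactose-type lectin, rose from 0.978 and 1.02 CPM to 1.86 and 1.57 CPM (log2 ratio 0.78, adjusted p = 0.0434) after falling with LPS from 3.03 and 2.38 CPM. All 4 have a mean under 5 CPM over the 10 libraries, and leaving out 1 library gave 2 to 4 calls in this list, with 2 calls without either DMSO + LPS library or without replicate 1 at 32 µM. *Cd69* and *Clec2d* kept their calls in all 10 fits that each left out 1 library, and *Mrc1* lost its call in 3 of them (adjusted p up to 0.0901). *Clec10a*, the 1 lectin called higher, lost its call in 9 of the 10 (edgeR adjusted p from 0.0478 to 0.227 over the 10). *Mrc2* was the lectin with the lowest log2 ratio for LPS (-2.42), at 0.408 and 0.405 CPM in DMSO and 0.140 and 0 CPM in DMSO + LPS.

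Among the Fc receptor genes *Trim21*, an intracellular antibody receptor, rose with LPS from 17.1 and 17.0 CPM to 74.5 and 74.9 CPM and fell to 33.2 and 34.8 CPM at 32 µM (log2 ratio -1.13, edgeR adjusted p = 5.83e-06). *Fcgrt*, the neonatal Fc receptor, fell with LPS (log2 ratio -1.48), and *Fcrl1* rose with it (1.20) and had a log2 ratio of 0.58 at 32 µM, short of the cutoff. The scavenger receptors *Mertk* (log2 ratio -1.37), *Scarb2* (-1.0002) and *Colec12* (-0.96) had the lowest ratios of their list among those called with LPS, opposite in sign to *Msr1*. In the proximal list the kinase *Src* (log2 ratio 3.09) and the adaptor *Lcp2* (SLP-76, 1.99) rose most with LPS. *Lcp2* was the 1 gene of this list that fell at 32 µM, from 319 and 311 CPM to 195 and 198 CPM (log2 ratio -0.68, adjusted p = 3.30e-05). Without replicate 2 at 32 µM *Trim21* (log2 ratio -1.17) and *Lcp2* (-0.69) were still called.

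**Figure D4:**
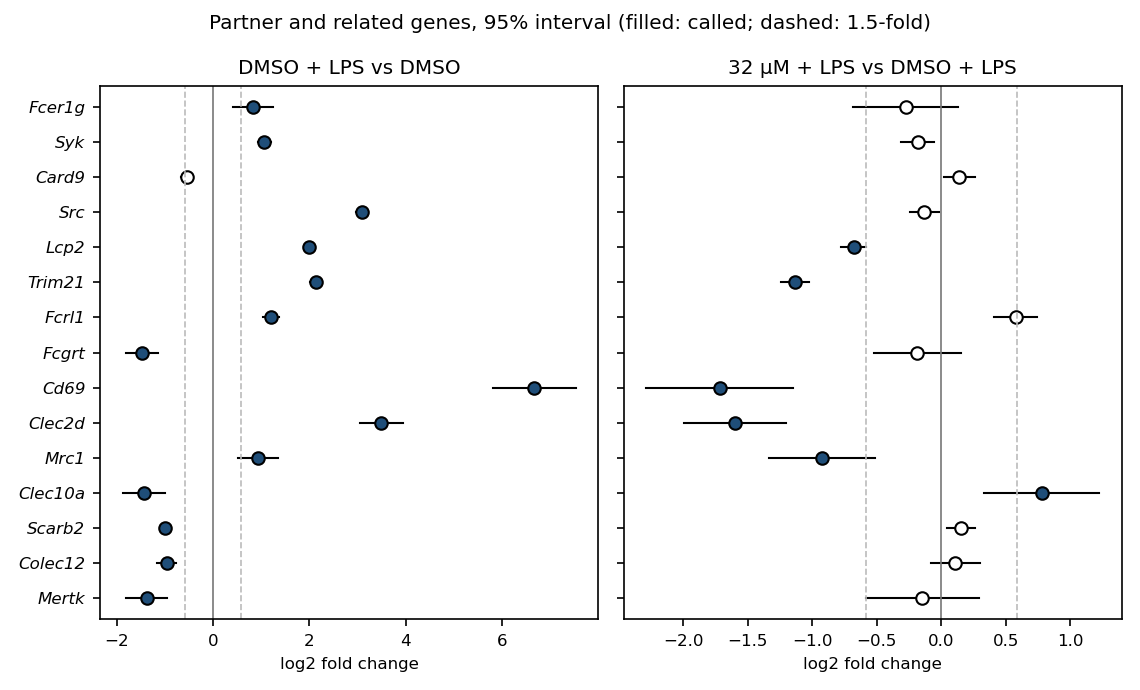
Log2 fold change (x axes, with different ranges) of 15 partner and family genes (y axis) for LPS against DMSO (left) and for 32 µM **1** with LPS against DMSO + LPS (right), with 95% intervals. Filled points were called and dashed lines mark 1.5-fold. The points of *Fcer1g*, *Syk* and *Card9* lie within 1.5-fold at 32 µM, whereas *Trim21* stands at -1.13 and *Cd69* at -1.72. The interval of *Fcer1g*, from -0.68 to 0.13, passes the lower 1.5-fold line.

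Within 200 kb of the members the genes called at 32 µM were other members (*Clec4n*, *Fcgr2b*, *Fcgr3* and *Fcgr4*) and *Cd69*, which lies 186155 bases from *Clec7a*. Tested genes in these windows, some of them shared, numbered 3 each for *Clec4d*, *Clec4e* and *Clec4n* and 6 for *Clec7a*. For *Fcgr1*, *Fcgr2b*, *Fcgr3* and *Fcgr4* they numbered 15, 10, 15 and 13. Over all genes 4.18% were called at 32 µM. A part of position was not tested.

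For each tested member the 2 genes with the most similar pattern were found by Pearson's r of log2 CPM over the 10 libraries, as a description, since the libraries fall into 5 conditions and share their depth. *Fcgr1* was closest to *Psmb9* (r = 0.983), a subunit of the immunoproteasome, and *Fabp5* (0.963), and *Fcgr4* to *Itm2c* (0.987) and *Psmb10* (0.981). *Fcgr2b* was closest to the chemokine gene *Ccl2* (0.998) and *Gm43302* (0.997). *Clec4e* was closest to *Plk2* (0.999) and *Tnip3* (0.999), *Clec4d* to *Arl8a* (0.998) and *Pak1ip1* (0.996), *Clec4n* to *Ms4a6c* (0.985) and *Il15ra* (0.984), and *Clec7a* to *Sdcbp* (0.971) and *Vma21* (0.964). *Fcgr3* was closest to *Anapc5* (0.997) and *Mcm3* (0.996), a helicase subunit of DNA replication, and *Msr1* to *Ddx24* (0.995) and *Lcp1* (0.994). Among the members themselves, *Fcgr2b* and *Msr1* had r = 0.988, *Clec4n* and *Fcgr4* 0.967, and *Clec4d* and *Clec4e* 0.969, while *Fcgr3* ran opposite to *Clec4d* with r = -0.983.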

How the data were processed

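RNA from RAW264.7 cells was sequenced in 10 libraries, 2 for each of 5 conditions. The authors prepared poly(A)-selected directional libraries and deposited unnormalized raw counts, 1 row per mouse Ensembl gene. The submitters' processing notes name Trimmomatic, FastQC, STAR, DESeq2 and mm10; the counting tool, the annotation and the use of strand are not given in the sources used here. The authors' own comparison tables (fold changes and p-values) were not used.

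Of 43432 genes, 42548 had a symbol in GENCODE M21 (GRCm38), 19292 had 0 counts in every library and 14172 were tested. Counts were analyzed in R 4.3.3 with edgeR 4.0.16: filterByExpr (minimum count 10), TMM, 1 mean per condition over all 10 libraries (5 residual degrees of freedom, prior 2.76, common biological coefficient of variation 0.128), quasi-likelihood F tests and Benjamini-Hochberg adjustment. Cutoffs were 1.5-fold and an adjusted p of 0.05. CPM used TMM-scaled totals, and RPKM divided CPM by the length of all exons of a gene merged. Library totals of 45966803 to 58976377 give a counting error of 5.82% to 6.60% at 5 CPM, and floors cover counting error only.

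The members and lists were chosen with earlier results of these data known. Text names the 10 members, *Fcer1g*, *Syk* and *Card9*, up to 4 genes of each list called at 32 µM and up to 3 called for LPS with the largest log2 ratios, the 2 most similar genes (mean of at least 5 CPM) and genes within 200 kb called at 32 µM; 1 gene that this rule names is not reported here. *Gm42418*, *Gm38204*, *Pigr*, *Clec2h*, *Cd36* and single cell type markers were named after their values were seen. Promoter sequences are from RefSeq (GRCm38.p6). The steps were tested on simulated data with known changes in the 32 µM group alone. That simulation held no LPS effect and none of the marker, ribosomal RNA or short-transcript differences between libraries. Alternatives changed the scaling (DESeq2 size factors; library size alone), the filter (none; genes averaging 5 CPM or more), the model (the replicate number as a block; only the 4 libraries of the comparison), the test (the likelihood ratio test of edgeR; DESeq2 1.42.0) and the cutoff (2-fold; adjusted p alone), or left out each library in turn. No planned protein comparison was made.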

Additional observations from a re-analysis of the deposited data

How the results depend on the processing

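Counts of called members depended on the cutoffs, the filter and the scaling in these cases. For LPS the 9 became 5 with library size alone and 4 at 2-fold, and the 6 at 32 µM became 2 at 2-fold and 7 with adjusted p alone. A mean of at least 5 CPM left out *Clec7a* and gave 8 calls for LPS and 5 at 32 µM. For 32 µM against DMSO the 5 became 4 at 2-fold and 6 with adjusted p alone. At 10 µM the 1 call became 2 without a count filter, 4 with adjusted p alone, 0 at 2-fold and 0 on the 4 libraries compared. Between 32 and 10 µM the 2 became 0 on the 4 libraries, 1 at 2-fold and 3 with adjusted p alone, and between 10 and 3.2 µM the 1 became 0 on the 4 libraries, 0 at 2-fold and 3 with adjusted p alone. Leaving out 1 library at a time gave 8 to 9 calls for LPS, 4 to 6 at 32 µM, 0 to 2 at 10 µM, 0 at 3.2 µM, 5 for 32 µM against DMSO, 1 to 2 for 32 against 10 µM and 0 to 1 for 10 against 3.2 µM, where a lone library is assumed to vary like those of other groups. The causes were not tested, beyond the fewer degrees of freedom of the fits on 4 libraries.

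The log2 ratios that changed sign were all near 0 and none was called. With library size alone *Clec4e* was at 0.0058 at 10 µM and 0.0050 for 10 against 3.2 µM, and against DMSO *Clec7a* was at -0.16 and *Fcgr4* at -0.20, where the median of all genes moved to -0.18. Without a count filter *Clec4e* was at -0.0054 at 3.2 µM and *Fcgr4* at -0.016 against DMSO. *Fcgr4* against DMSO was at -0.0019 with a mean of at least 5 CPM and -0.014 on the 4 libraries. Leaving out 1 library gave *Clec4e* from -0.035 to 0.088 at 32 µM, -0.081 to 0.044 at 10 µM, -0.011 to 0.028 at 3.2 µM, -0.027 to 0.096 for 32 against 10 µM and -0.079 to 0.035 for 10 against 3.2 µM. In the same way *Fcgr3* ran from -0.090 to 0.14 and *Fcgr4* from -0.11 to 0.029 at 3.2 µM, and against DMSO *Clec7a* from -0.096 to 0.16 and *Fcgr4* from -0.16 to 0.14.

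With the replicate number as a block the counts stayed at 9, 6, 1, 0, 5, 2 and 1 in the order LPS, 32, 10 and 3.2 µM, 32 µM against DMSO, 32 against 10 µM and 10 against 3.2 µM. The numbers were not taken as a pairing, because replicate differences of DMSO + LPS correlated negatively with those of the other conditions (-0.43 to -0.21) and those of the others positively with each other (0.39 to 0.85). With the numbers of DMSO + LPS crossed, which was added once the data had been seen, the counts were again 9, 6, 1, 0, 5, 2 and 1.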
